A study of Homo sapiens with 6 samples.

Results

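The KLF and EGR genes encode zinc finger transcription factors, and 10 of them were followed here in BHT101 cells given extra SK4. They are KLF2, KLF3, KLF4, KLF5, KLF6, KLF10, KLF11, EGR1, EGR2 and EGR3, taken by symbol from a table of 32896 genes, and all 10 had a row. BHT101 is an established human line from an anaplastic thyroid carcinoma. It was transfected with either a control plasmid or an SK4 overexpression plasmid and harvested 48 h later, with 3 RNA-seq libraries per group. The study asked which genes and splicing events respond to SK4, a potassium channel opened by calcium and encoded by KCNN4. Separate cultures are not mentioned in the labels, and the p-values then measure only the spread between these libraries, which may be technical. The plasmid was delivered transiently with a lipid reagent, so the values average over cells with and without it.

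KLF proteins bind GC-rich and CACCC sequences through a run of zinc fingers at their C terminus and act as activators or repressors depending on the cofactors that their N termini recruit. EGR proteins bind a related GC-rich element. EGR1 to EGR3 and several KLF genes are immediate early genes: growth factors, stress or a rise in calcium induce their transcripts within minutes, largely through SRF, ELK and CREB factors already present in the cell, and the transcripts then decay quickly. SK4 lets potassium leave the cell, which keeps the membrane negative and favours calcium entry.

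The start regions of some members hold the letters of the motifs that these factors bind, and 4 are printed to show them. They are EGR1, the most abundant EGR gene in these cells, EGR2 and KLF2, whose SK4 and control values did not overlap, and KLF4, the most abundant member. EGR2 and KLF2 were thus picked by their values. EGR3, for which no region was used, did not overlap either. All SK4 values lay above all control values for 3.53% of the genes tested below and for 3.79% of the lower genes given below. Each printed stretch is the 250 bases before a RefSeq start site in GRCh38.p14, read 5′ to 3′ on the gene's own strand. Capitals mark matches on either strand to the CArG box bound by SRF, to the MEF2 motif and to TGACG, the core of the cAMP response element bound by CREB.
EGR1, chr5:138465229-138465478, plus strand: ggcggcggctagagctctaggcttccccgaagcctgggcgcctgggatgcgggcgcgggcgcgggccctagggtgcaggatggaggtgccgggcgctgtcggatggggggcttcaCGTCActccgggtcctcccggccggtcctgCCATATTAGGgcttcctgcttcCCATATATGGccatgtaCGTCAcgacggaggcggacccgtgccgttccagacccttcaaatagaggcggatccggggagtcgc
EGR2, chr10:62816367-62816616, minus strand: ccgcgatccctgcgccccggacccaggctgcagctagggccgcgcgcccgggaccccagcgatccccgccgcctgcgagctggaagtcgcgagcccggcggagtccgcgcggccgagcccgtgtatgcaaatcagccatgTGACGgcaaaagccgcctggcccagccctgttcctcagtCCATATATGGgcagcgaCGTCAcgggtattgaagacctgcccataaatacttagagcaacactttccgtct
KLF2, chr19:16324576-16324825, plus strand: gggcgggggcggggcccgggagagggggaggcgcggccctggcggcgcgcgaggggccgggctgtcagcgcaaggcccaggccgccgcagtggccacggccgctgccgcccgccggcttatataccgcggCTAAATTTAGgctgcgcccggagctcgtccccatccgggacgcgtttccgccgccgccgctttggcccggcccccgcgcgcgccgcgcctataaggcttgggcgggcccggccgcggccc
KLF4, chr9:107489770-107490019, minus strand: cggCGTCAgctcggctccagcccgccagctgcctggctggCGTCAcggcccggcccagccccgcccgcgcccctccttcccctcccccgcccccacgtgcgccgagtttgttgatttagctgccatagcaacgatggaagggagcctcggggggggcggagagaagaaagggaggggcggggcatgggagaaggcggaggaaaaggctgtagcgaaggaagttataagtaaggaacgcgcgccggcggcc

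The EGR1 stretch holds 2 CArG boxes, which begin 105 and 83 bases before the start, with TGACG cores beginning at 135 and 66 bases. The EGR2 stretch holds 1 CArG box at 71 bases and TGACG cores at 110 and 54 bases. It is 1 of 3 RefSeq start regions of EGR2 and was chosen because the other 2 held neither motif. In KLF2 the MEF2 motif, which takes input from the ERK5 kinase, begins 120 bases before the start. KLF4 holds TGACG cores at 247 and 210 bases. Over all 35116 RefSeq start regions of 300 bases (250 before the start and 50 after it), 1.29% held a CArG box, 0.572% a MEF2 motif and 24.6% a TGACG core, so only the core is common. Start regions were found for 7 members, and among them only KLF11 held the full element TGACGTCA, present in 1.85% of all regions. The core lies inside the full element, so KLF11 is counted for both. KLF5 held 1 TGACG core, which begins 14 bases before 1 of its start sites, and KLF6 held none of these motifs. No entry was used for KLF3, KLF10 or EGR3. A match describes the letters only.

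KCNN4 itself rose 18.8-fold, from 8.36 ± 0.138 FPKM with the control plasmid (fragments per kilobase, relative to all mapped fragments) to 167 ± 18.3 FPKM with SK4 (SD, n = 3 each; limma, adjusted p = 8.83e-07), which matches the labels. An exact two-sided permutation test on it gave p = 0.1, the smallest that 3 against 3 libraries allow. Estimated depth ran from 29700000 fragments in control replicate 3 to 38500000 in control replicate 2. Control replicate 3 also stood apart: over all 11139 tested genes its median log2 difference from the other controls was -0.097, and SK4 replicate 2 had the lowest such value of the SK4 libraries, -0.036. The treatment label of control replicate 3 names another line, BHT102, while its other labels name BHT101. Thyroid markers were at or near 0: TG, TSHR, NKX2-1 and SLC5A5 reached no more than 0.08 FPKM in any library, FOXE1 no more than 0.12 FPKM, and PAX8 lay between 0.24 and 0.40 FPKM. Epithelial keratins were high (KRT18 at 169.8 to 181.7 FPKM). Other epithelial genes were lower, with EPCAM between 10.4 and 12.7 FPKM and CDH1 only between 1.59 and 1.97 FPKM. Markers of other cell types were mixed. Of leukocyte genes, PTPRC and CD3E were at 0.04 FPKM or less and LYZ at 0.23 FPKM or less, while CD68 lay between 1.63 and 2.19 FPKM and CD14 between 3.32 and 4.43 FPKM. Of endothelial genes, CDH5, VWF and KDR were at 0.03 FPKM or less and PECAM1 between 0.26 and 0.40 FPKM. Of fibroblast genes, COL1A1, COL1A2 and PDGFRB were at 0.16 FPKM or less and DCN at 0.50 FPKM or less, while LUM lay between 21.9 and 31.2 FPKM. The groups overlapped for CD14, CD68, PECAM1 and LUM.

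Mean levels of the members ran from 0.255 to 23.2 FPKM. KLF4 was highest, at a mean of 23.2 FPKM over the 6 libraries, followed by KLF6 (14.0 FPKM), EGR1 (12.3 FPKM), KLF5 (10.2 FPKM), KLF10 (8.71 FPKM), KLF2 (5.13 FPKM), KLF3 (4.67 FPKM) and KLF11 (3.72 FPKM). EGR3 (0.325 FPKM) and EGR2 (0.255 FPKM) were far below the rest. FPKM is a level per length, so genes can be set side by side. The ranges over 6 libraries did not overlap between KLF4 and KLF6, EGR1 and KLF5, KLF10 and KLF2, or KLF11 and EGR3. They overlapped between KLF6 and EGR1, between KLF5 and KLF10, between KLF2 and KLF3, between KLF3 and KLF11, and between EGR3 and EGR2. Within each library, KLF5 was nevertheless above KLF10 and KLF3 above KLF11 in 6 of 6. KLF6 was above EGR1, KLF2 above KLF3 and EGR3 above EGR2 in 5 of 6, so the order of these 3 pairs did not hold in every library. KLF4 lay at the 83.9th percentile of mean level among tested genes and KLF11 at the 40.3rd. Of 18 other KLF and SP genes in the table, only KLF16 had a higher mean than KLF4 (26.4 ± 1.39 FPKM with the control plasmid, SD, n = 3), and 6 passed the filter.

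**Figure D1:**
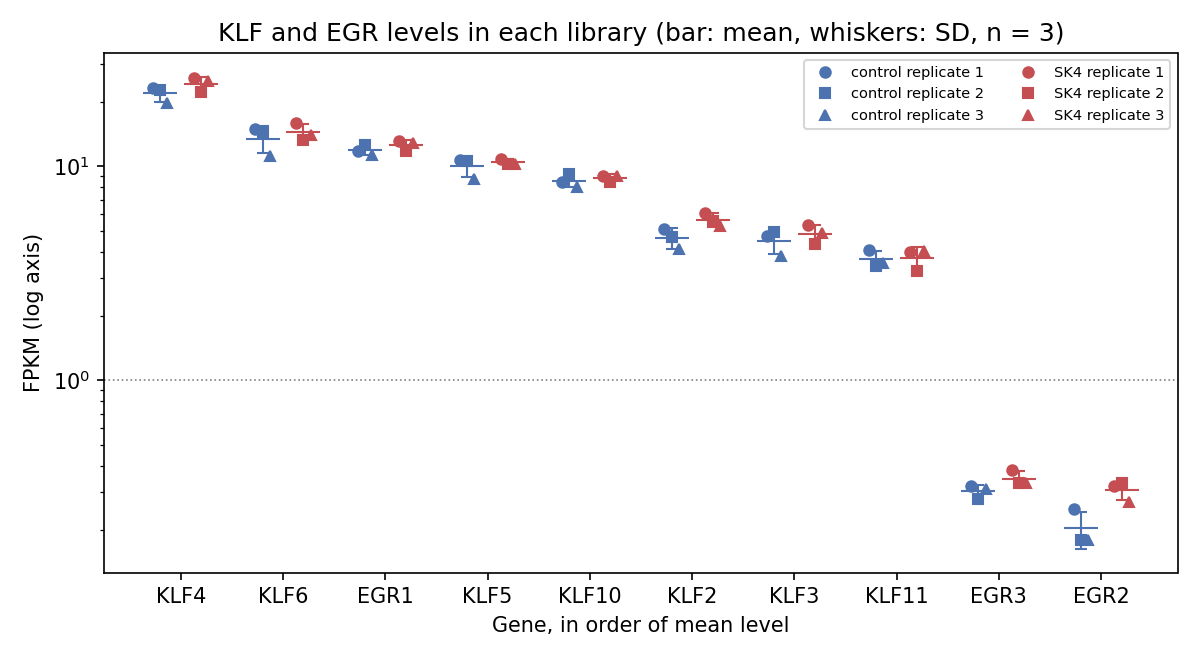
FPKM of the 10 KLF and EGR genes (log axis) in each library, ordered by mean level, with the control libraries in blue and the SK4 libraries in red; horizontal bars are means and whiskers SDs (n = 3), and the dotted line marks 1 FPKM. EGR2 and EGR3 lie below 0.4 FPKM in every library, and KLF2, EGR2 and EGR3 have every red point above the blue points.

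No KLF or EGR gene was called between the groups. A gene was tested if it reached 1 FPKM in at least 3 libraries and called at an adjusted p below 0.05 (limma on log2(FPKM + 0.5), over all 11139 tested genes). Tested were 8 members, of which 0 were called and 1, KLF2, had an unadjusted p below 0.05. Over all tested genes 0.00898% were called higher (KCNN4 alone) and 0% lower, and 1.06% were higher and 0.593% lower at the unadjusted level. EGR2 and EGR3 stayed under the filter and are given as values. Fold changes on this scale understate those of low genes. For each of the 8 tested members the 95% confidence interval of the fold lay inside 1.5-fold in either direction, as it did for 96.8% of all tested genes.

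Among the activators, KLF2, which blood flow induces in endothelium and which keeps T cells quiescent, held 5.12, 4.69 and 4.10 FPKM in control replicates 1 to 3 and 6.07, 5.56 and 5.26 FPKM in SK4 replicates 1 to 3. All SK4 values lay above all control values, with a gap of 0.14 FPKM. Such a separation upwards was found for 3.53% of all tested genes, and one downwards for 1.81%. The fold from limma was 1.20 (95% confidence interval 1.03 to 1.39, adjusted p = 0.99997), a log2 fold change of 0.26 with an SE of 0.091. Over the alternative settings its log2 fold change lay between 0.15 and 0.33 with adjusted p from 0.638 to 0.99997, and it was 0.18 without control replicate 3. In bulk RNA a small shift in all cells and a larger one in some of them cannot be told apart. KLF2 lies at chr19:16324817-16327874 on the plus strand and has 3 exons.

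KLF4, a regulator of epithelial differentiation and one of the factors used to reprogram cells to pluripotency, held 23.3, 22.8 and 19.8 FPKM with the control plasmid and 25.8, 22.2 and 25.1 FPKM with SK4. SK4 replicate 2 fell among the control values, so the groups overlapped. Its fold was 1.11 (95% confidence interval 0.970 to 1.26; limma, adjusted p = 0.99997). Without control replicate 3 the log2 fold change was 0.074 in place of 0.15. KLF4 lies at chr9:107484852-107490482 on the minus strand. The stretch printed above lies inside this span, as the RefSeq start site used is not its outer end.

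KLF5, which promotes proliferation of epithelial cells, and KLF6, a ubiquitous activator studied as a tumour suppressor, each had their lowest value in control replicate 3. KLF5 held 10.7, 10.6 and 8.74 FPKM with the control plasmid and 10.9, 10.2 and 10.3 FPKM with SK4. Apart from that 1 low control, the KLF5 values fell within 10.2 to 10.9 FPKM. KLF6 held 15.0, 14.3 and 11.2 FPKM with the control plasmid and 15.9, 13.3 and 14.1 FPKM with SK4. The KLF6 groups overlapped, with control replicate 1 above 2 of the SK4 libraries. The log2 fold changes, 0.066 for KLF5 and 0.099 for KLF6, became -0.025 and -0.024 without control replicate 3 (limma, adjusted p = 0.99997 for both with all libraries).

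The repressors had overlapping groups. KLF3, which silences genes through the co-repressor CtBP, held 4.74, 4.94 and 3.81 FPKM with the control plasmid and 5.32, 4.36 and 4.87 FPKM with SK4. KLF10 and KLF11 are TGF-beta inducible repressors that recruit SIN3. KLF10 held 8.48, 9.22 and 8.03 FPKM with the control plasmid and 9.03, 8.45 and 9.05 FPKM with SK4, and its highest value was that of a control. KLF11 held 4.08, 3.43 and 3.54 FPKM with the control plasmid and 3.99, 3.25 and 4.01 FPKM with SK4, so its highest value was that of a control and its lowest that of an SK4 library. The folds were 1.07 (95% confidence interval 0.899 to 1.28) for KLF3, 1.03 (0.928 to 1.14) for KLF10 and 1.01 (0.862 to 1.19) for KLF11 (limma, adjusted p = 0.99997 each). Without control replicate 3 the log2 fold changes were -0.00095, -0.00055 and -0.0027. KLF3 and KLF11 have antisense partners that share 266 and 416 exonic bases with them, KLF3-AS1 (up to 0.13 FPKM) and AC104794.4 (0.52 to 1.05 FPKM). No source used here says whether the counting used strand, so reads of such partners cannot be told apart with certainty.

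EGR1, the EGR gene most often read as a sign of ERK activity, held 11.9, 12.7 and 11.4 FPKM with the control plasmid and 13.2, 11.8 and 12.9 FPKM with SK4. The groups overlapped, with SK4 replicate 2 below 2 of the controls. Its fold was 1.05 (95% confidence interval 0.952 to 1.17; limma, adjusted p = 0.99997). It kept a positive log2 fold change in every setting tried, between 0.040 and 0.12. EGR1 lies at chr5:138465490-138469315 on the plus strand and has 2 exons.

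EGR2, known for hindbrain patterning and Schwann cell myelination, held 0.25, 0.18 and 0.18 FPKM with the control plasmid and 0.32, 0.33 and 0.27 FPKM with SK4. The SK4 mean was 50.8% above the control mean, and the groups were apart by 0.02 FPKM in a table rounded to 0.01 FPKM. These levels correspond to an estimated 20 to 45 fragments per library, for which counting alone gives a coefficient of variation of 14.9% to 22.5%. EGR3, which acts in muscle spindles and in T cells, held 0.32, 0.28 and 0.31 FPKM with the control plasmid and 0.38, 0.33 and 0.33 FPKM with SK4, an estimated 45 to 67 fragments. Its groups were apart by 0.01 FPKM. An antisense gene sharing 164 exonic bases with EGR3 was at 0.01 FPKM or less. Among 6697 genes under the filter with a mean of at least 0.1 FPKM, the SK4 values lay wholly above the control values for 3.79% and wholly below for 3.42%, and the SK4 mean was higher for 51.5%. With no filter, limma gave EGR2 an unadjusted p of 0.0547 and EGR3 0.369, with an adjusted p of 0.973 for both.

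**Figure D2:**
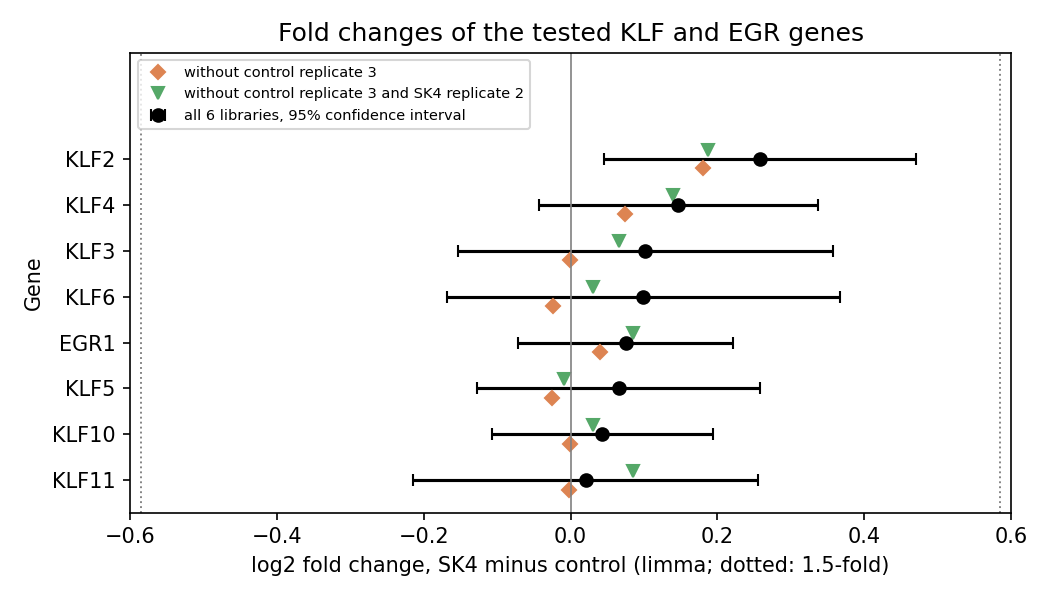
Log2 fold change (SK4 minus control) of the 8 tested genes with its 95% confidence interval from limma (black), the estimate without control replicate 3 (orange) and without control replicate 3 and SK4 replicate 2 (green); dotted lines mark 1.5-fold. All black points are positive, only the interval of KLF2 excludes 0, and 5 orange points are below 0.

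Taken by their means, all 10 members were higher in the SK4 libraries, by 1.81% (KLF11) to 50.8% (EGR2). The log2 fold change was above 0 for all 8 tested members (median 0.087). Over all tested genes 57.9% were positive and the median was 0.011. With control replicate 3 left out, 6 of the 10 means were higher and 3 of the 8 fitted fold changes were positive (median -0.00075). In that fit 38.9% of all tested genes were positive. Their median fell from 0.011 to -0.021, less than the median of the tested members, which fell from 0.087 to -0.00075. KLF3, KLF10 and KLF11 lay above the median of all tested genes and KLF5 and KLF6 just below it. Leaving out control replicate 3 turned the sign of KLF3, KLF5, KLF6, KLF10 and KLF11, while KLF2, KLF4 and EGR1 stayed positive. Without both control replicate 3 and SK4 replicate 2, 7 of the 8 were positive, with a median of 0.076. Of all tested genes 45.0% were positive in that fit, with a median of -0.0077. Again 0 members were called (limma). The limma p of KLF2 and KLF4 lay under 0.05 before adjustment, as did that of 559 of 10973 genes in either direction. With every library it did so for 184 of 11139 genes.

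The largest shifts shared by the members were those of single libraries. Control replicate 3 was the lowest of all 6 libraries for 7 of the 10 members, all of them tested, against 46.4% of all tested genes. SK4 replicate 1 was the highest for 7 of the 10, among them EGR3, which was under the filter, against 24.8% of all tested genes. For 6 of the 8 tested members control replicate 3 was the lowest control and SK4 replicate 2 the lowest SK4 library at once, which held for 41.0% of all tested genes. The median tested member lay 0.22 below its own mean in control replicate 3 on the log2 scale, 3 times the 0.071 of the median gene. In SK4 replicate 1 it lay 0.13 above, where the median gene lay 0.038 above. In SK4 replicates 2 and 3 the median tested member was at -0.055 and 0.057, and the median gene at -0.020 and 0.0026. KLF6 varied most within groups (within-group SD of 0.18 on the log2 scale, the 82nd percentile of tested genes) and KLF10 least (0.077, the 39.6th percentile). With the libraries scaled to the same median, the log2 fold changes of all 8 tested members remained positive, against 49.7% of all tested genes. They ran from 0.010 to 0.25, with KLF2 at 0.25 and KLF4 at 0.14. Control replicate 3 was also the shallowest library, and carries the BHT102 label. The part of depth, library quality or cell line in these shifts was not tested.

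**Figure D3:**
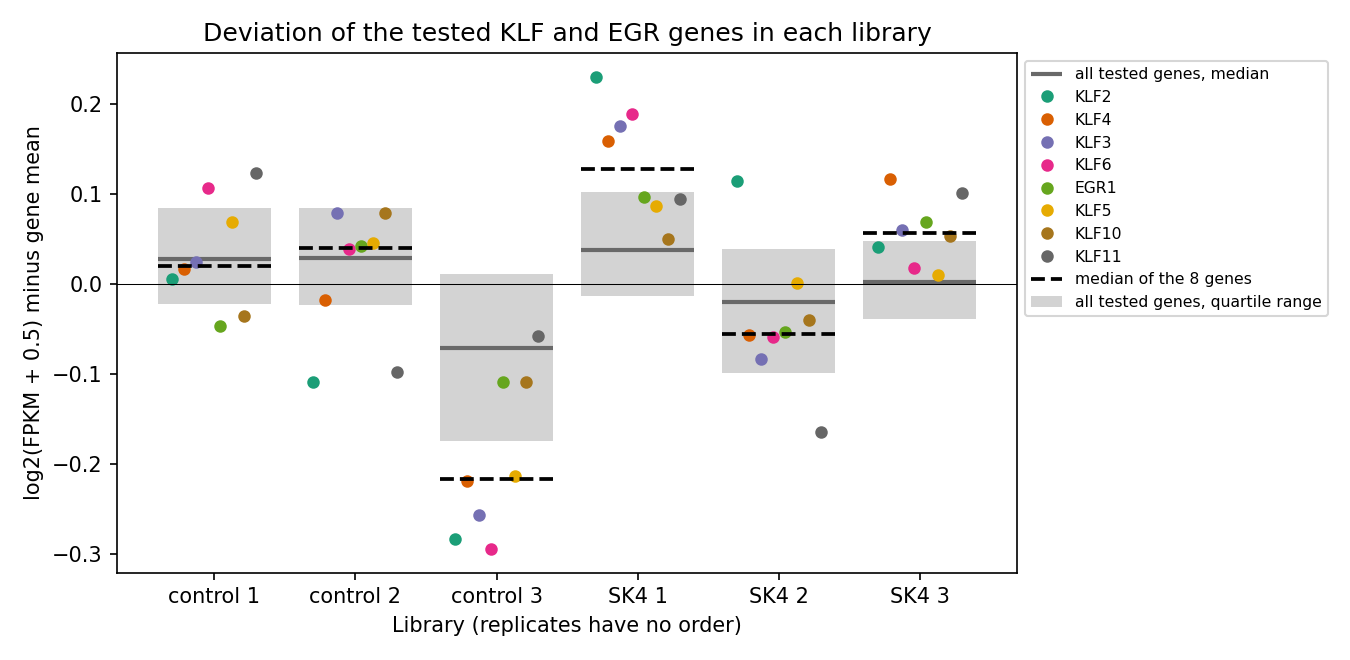
Log2(FPKM + 0.5) of each tested gene minus its mean over the 6 libraries, by library; grey boxes span the quartiles of all 11139 tested genes, grey lines are their medians and dashed lines the median of the 8 genes. The dashed line lies below the grey box in control 3, above it in SK4 1 and just above it in SK4 3.

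KLF2 had the largest spread over the 6 libraries of the tested members (SD 0.18 on the log2 scale). The 5 tested genes nearest to its pattern, by root mean square distance of mean-centred log2 values over those libraries, were ABCA11P, a pseudogene of an ABC transporter (0.054), APOA4 (0.054), PPP3CC (0.056) and 2 genes known by clone names (0.040 and 0.055). APOA4, an apolipoprotein gene, held 24.1, 21.4 and 17.8 FPKM with the control plasmid and 25.3, 24.2 and 24.0 FPKM with SK4. PPP3CC, a catalytic subunit of the calcium-dependent phosphatase calcineurin, held 3.58, 3.43 and 3.07 FPKM with the control plasmid and 4.05, 3.79 and 3.67 FPKM with SK4. None of the 5 was called (limma, adjusted p = 0.99997 each).

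Genes around the KLF and EGR factors were taken in 12 lists with 125 genes, of which 122 were in the table and 83 were tested. Of these 83, 0 were called in either direction (limma; 4 higher and 0 lower at an unadjusted p below 0.05), and 54 had a positive fold change. Over all tested genes, as given above, 1.06% were higher and 0.593% lower at that level and 57.9% were positive. The genes named are those with the largest and the smallest fold change of a list. SRF, MAPK7, NAB1, DUSP1, JUNB and CCN2 are named besides these.

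Among the regulators that switch these genes on, none was called. SRF, the factor of the CArG box, averaged 11.3 ± 0.319 FPKM with the control plasmid and 11.4 ± 0.569 FPKM with SK4 (SD, n = 3 each). Of 5 tested genes of SRF and its cofactors 3 were positive (median log2 fold change 0.015), from FHL2, an SRF-binding LIM protein, at -0.039 to MRTFA, the actin-regulated coactivator, at 0.12. On the ERK5 and MEF2 route to KLF2 and KLF4, 5 of 7 were positive (median 0.016). Its extremes were MEF2D at -0.082 and MEF2B at 0.14, and the ERK5 gene MAPK7 was at 2.26 FPKM in both groups. CREB factors and coactivators had 2 of 7 positive (median -0.047), from CREM at -0.19 to ATF1 at 0.049. Calcineurin and NFAT genes, which respond to calcium, had 5 of 7 positive (median 0.046), from PPP3CB at -0.018 to PPP3CC at 0.17, but 1 of 7 without control replicate 3 (median -0.050). 

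Partners and inhibitors of the factors were not called either. NAB2, a co-repressor that EGR proteins both bind and induce, held 8.94, 8.65 and 7.84 FPKM with the control plasmid and 7.81, 8.17 and 8.12 FPKM with SK4, a log2 fold change of -0.071. WT1, a zinc finger factor with a related DNA site, was at 0.14, with 1.24, 1.18 and 1.13 FPKM with the control plasmid and 1.32, 1.33 and 1.42 FPKM with SK4. The third tested gene of this list, NAB1, was at 0.0077. KLF co-repressors had 3 of 6 positive (median -0.0020), from CTBP1 at -0.040 to CTBP2 at 0.068. Ubiquitin ligases of KLF proteins had 2 of 5 positive (median -0.038), from SKP2 at -0.045 to WWP1 at 0.013, but 5 of 5 without SK4 replicate 2 (median 0.026) and 3 of 5 without control replicate 1 (median 0.039) or control replicate 2 (median 0.0047). Of the other KLF and SP genes 3 of 6 were positive (median 0.0038), from KLF16 at -0.031 to SP3 at 0.086.

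No target of the factors was called. Described EGR targets had 4 of 8 positive (median 0.017), from the tissue factor gene F3 at -0.18 to the synaptic activity gene ARC at 0.17, the only one with an unadjusted p below 0.05. ARC averaged 4.05 ± 0.155 FPKM with the control plasmid and 4.61 ± 0.289 FPKM with SK4 (SD, n = 3 each; limma adjusted p = 0.99997). Described KLF2 and KLF4 targets had 5 of 7 positive (median 0.033), and the lowest was the quinone reductase gene NQO1 at -0.033. TGF-beta immediate targets, listed because KLF10 and KLF11 are TGF-beta inducible, had 5 of 6 positive (median 0.045). The lowest was ID1 at -0.0038.

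The other immediate early genes, induced by the same signals as the EGR genes, had 16 of 18 positive and a median of 0.076, from BTG2 at -0.069 to the AP-1 subunit FOSB at 0.20. Without control replicate 3, 14 of 18 were positive with a median of 0.054. DUSP1, JUNB and CCN2 had an unadjusted p below 0.05 and were named after their values were seen. DUSP1, the phosphatase that ends MAPK signals, had a log2 fold change of 0.16, JUNB 0.077 and CCN2, a matrix-associated growth regulator, 0.13. Among all tested genes 57.9% were positive with every library and 38.9% without control replicate 3, and 1.06% were higher at an unadjusted p below 0.05. The difference between the lists was not tested.

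The direction of most lists did not hold when single libraries were left out. The median of all tested genes, 0.011 with every library, also turned negative without control replicate 3 (-0.021) or SK4 replicate 1 (-0.0049). When each of the 6 libraries was left out in turn, the median changed sign at least once for 8 of the 12 lists and kept it for 4, the CREB factors (-0.097 to -0.015), the TGF-beta targets (0.025 to 0.085), the KLF2 and KLF4 targets (0.0076 to 0.054) and the other immediate early genes (0.054 to 0.099). Without control replicate 3 the medians turned negative for the SRF, ERK5 and MEF2, calcineurin and NFAT, EGR partner, EGR target and other KLF and SP lists, from -0.083 to -0.0046. Without SK4 replicate 1 they turned negative for the same lists except that of ERK5 and MEF2, from -0.052 to -0.0066. The KLF co-repressor and ubiquitin ligase medians turned positive without control replicate 1, control replicate 2 or SK4 replicate 2. The remaining changes were those of the SRF list without control replicate 1 (-0.0025) or SK4 replicate 2 (-0.0036), the EGR partners without SK4 replicate 3 (-0.012), and the other KLF and SP genes without control replicate 2 (-0.0052) or SK4 replicate 3 (-0.0055). The filter was applied anew in each fit. SP3 then left the other KLF and SP list without control replicate 1, control replicate 2 or SK4 replicate 1. Those medians are over 5 genes in place of 6, so they do not compare the same genes.

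**Figure D4:**
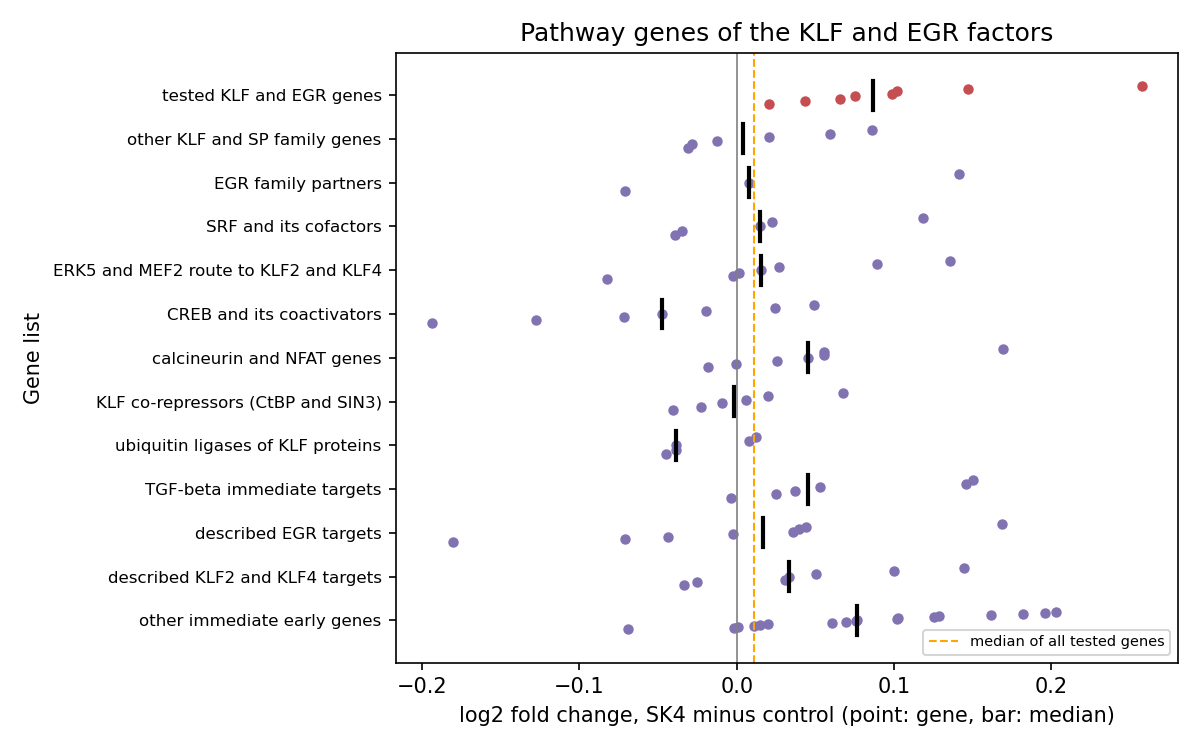
Log2 fold change (SK4 minus control, limma) of each tested gene of 12 pathway lists and of the 8 tested KLF and EGR genes (red); black bars are list medians and the dashed line is the median of all tested genes, 0.011. No point reaches 0.3 in either direction, and the KLF and EGR genes all lie right of 0.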

How the data were processed

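HISAT2 and GRCh38 are the tool and build named, per the submitters' processing notes; the sources used here give no versions, counting tool or annotation. FPKM values per library, rounded to 2 decimals, were deposited by the authors. Libraries were grouped by title. Control replicate 3, whose treatment label names BHT102, was kept as a control. Polyadenylated RNA was sequenced from stranded libraries, per the labels' protocols.

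The 11139 genes that reached 1 FPKM in 3 or more libraries were compared as log2(FPKM + 0.5) with limma 3.58.1 in R 4.3.3 (trended, robust prior variance; group as the only term) and Benjamini-Hochberg adjustment over all of them. The fit was tested on simulated data. The unit being FPKM, no count model was used. Depth was estimated from 561 single-exon genes shorter than 160 bp, whose low values are multiples of 1 fragment (99.5% to 100% whole within 0.1). Fragments per member use the exonic length in GENCODE 29 (GRCh38), which also gave coordinates, and cover counting error only. Start regions are from RefSeq (GRCh38.p14), whose start sites can differ from the outer ends of the GENCODE spans. The printed EGR2 and KLF4 stretches lie inside those spans, and the KLF2 stretch ends just inside its own.

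The members and lists were chosen with earlier results of these data known. The rule for named genes took KCNN4, all members, called list genes, the extremes of each list, and the 5 genes nearest to the most variable tested member; some genes it took are not reported here. Alternatives covered the pseudocount, filter, scaling, prior variance, library weights, replicate number and left-out libraries.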

Additional observations from a re-analysis of the deposited data

How the results depend on the processing

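No KLF, EGR or pathway list gene was called under any of the 16 alternative settings. KCNN4 was called in each, with log2 fold changes from 4.16 to 4.32 when 1 library was left out. Without control replicate 3 and SK4 replicate 2 together, 3 genes were called higher and 1 lower over all genes. The sign changed in 11 of 126 estimates for single members. The filter, prior variance and replicate block settings leave each estimate unchanged by design, so no sign could change there. With array weights KLF5 was at -0.018 and KLF6 at -0.011, and KLF5 was at -0.0089 without control replicate 3 and SK4 replicate 2. Leaving out 1 library gave -0.025 to 0.12 for KLF5, -0.024 to 0.18 for KLF6, -0.00095 to 0.17 for KLF3, -0.00055 to 0.094 for KLF10 and -0.025 to 0.11 for KLF11; the negative values came without control replicate 3, and for KLF11 also without control replicate 2, SK4 replicate 1 or SK4 replicate 3. The median of the tested members then ranged from -0.00075 to 0.14, against 0.087. With the replicate number as a block 0 members were called, and the genes called over the table numbered 1 higher and 0 lower. The log2 fold changes equal those without the block by design, as the groups are balanced. KLF2 therefore stayed at 0.26 (limma, adjusted p = 0.99997). Deviations of same-numbered libraries from their group means correlated at 0.31, -0.41 and -0.15 across genes. Deviations within a group are tied to each other, so these values cannot settle whether the numbers pair the libraries. Depth limits EGR2 and EGR3, whose values rest on 20 to 67 fragments.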
